A study of Mus musculus with 2 samples.

Results

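A small class of isoforms in the long-read annotation of mouse muscle stem cells (MuSCs) was unspliced although the gene was otherwise spliced. A transcript was taken into this class when it had a single exon, was written by the isoform caller and not carried over as a reference entry, and lay in a gene where another annotated transcript had at least 3 exons. The class held 265 isoforms in 263 genes, out of 84961 transcripts in 12730 genes. All 265 carried the name of a Gencode transcript. Of these, 263 were present in Gencode vM21, and all 263 had the same start, end and single exon there. The long reads therefore gave these isoforms support but no ends of their own. By contrast, none of the 70360 isoforms that had no Gencode name was a single-exon transcript.

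The cells came from mice with a Pax7creERT2 driver and a R26-eYFP fl/fl reporter on a C57BL6 background, in which Cre acts in Pax7-expressing cells. At 3 months of age the mice were given 100 uL of tamoxifen (20 mg/ml) on each of 5 days, and tissue was taken 2 weeks later. YFP-positive MuSCs were sorted from uninjured hindlimb muscle (quiescent) and from muscle 72 h after injury with 40 uL of 1.2% barium chloride (activated), and the labels put both in the same samples. Droplets of 1 Chromium 10x v2 capture were divided into aliquots of 10% and 90%, and nanopore reads were made from the 10% aliquot alone. In the short reads of that aliquot, the MuSC markers Pax7 and Calcr had 114 and 32 UMIs (molecules) of 6772259. The cell cycle gene Top2a had 498. Immune genes ranged from 2 (Ptprc) to 342 (Lyz2), with 299 for Tyrobp. Fibro-adipogenic genes ranged from 1 (Lum) to 99 (Ly6a), with 2 for Pdgfra and 26 for Dcn. Among smooth muscle or pericyte genes, Acta2 had 540, Myh11 6 and Rgs5 3. Isoform support is pooled over all cells, and the part of other cells in it was not tested. There is no replicate, so intervals given below cover counting error over isoforms and not the spread between animals.

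In most genes introns are removed from the nascent transcript, and the 3′ end is made by cleavage downstream of a poly(A) signal, usually AATAAA or ATTAAA. Gencode has a type, retained_intron, for transcripts that hold intronic sequence of other transcripts of the gene. RNAs with retained introns often stay in the nucleus or are degraded. In the 10x 3′ chemistry, cDNA synthesis starts from an oligo(dT) primer, which pairs with a poly(A) tail and can also pair with a run of A within a transcript.

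Most of the single-exon isoforms crossed a 5′ splice site that the other transcripts of the gene used. In the 5 best supported isoforms that ran from a first exon into an intron, the exon border was as follows, with the first 2 bases of the unspliced intron in capitals and the sequence read from Gencode vM21 transcripts (mm10).
Emp1, chr6:135363093-135363122, plus strand: gatactccagGTaagattgtccccacactg
Cars, chr7:143599962-143599991, minus strand: gcggagcaggGTgaggtttgcgggatgact
Serpine2, chr1:79858491-79858520, minus strand: gcgaggacggGTgagtagcagctgcggggt
Trim35, chr14:66297540-66297569, plus strand: agacttccggGTgagcaccgcgccagcccg
Sf3b3, chr8:110846655-110846684, minus strand: ttgcagcaggGTaaagaagtggcctcccag
Each of these junctions is spliced in a multi-exon transcript of the same gene. At least 1 such donor site lay inside 244 of the 265 isoforms. Where the 3′ end was in an intron and the donor of that intron was inside the isoform, the intron opened with GT in 194 of 196 isoforms and with GC in the other 2.

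The typical single-exon isoform began in the first exon of its gene and ended in the first intron. A start in a first exon and an end in an intron were found in 163 of 265 isoforms (61.5%, exact 95% interval 55.4 to 67.4), which held 65.7% of the supporting reads of the class. With exons taken from transcripts with source reference alone, which 94 isoforms have, the share was 37.2%, against 11.2% of 492 other single-exon Gencode transcripts (difference 26.1 points, interval 16.5 to 36.5). No tolerance was used for the start and end classes, and with 10 bases the share was 64.2%. Of these 163 isoforms, 136 ended in intron 1, 23 in intron 2 and 4 in a later intron. Their 3′ ends lay a median of 1199 bases into the intron (quartiles 711 and 1809) and had passed a median of 24.7% of it. A median of 83.5% of their bases lay outside every exon of the multi-exon transcripts. Another 21 isoforms ran from a first exon to a last exon, 21 from upstream of all multi-exon transcripts into an intron (8 of them starting within 10 bases of such a transcript), 14 from intron to intron and 11 from an intron to a last exon.

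**Figure D1:**
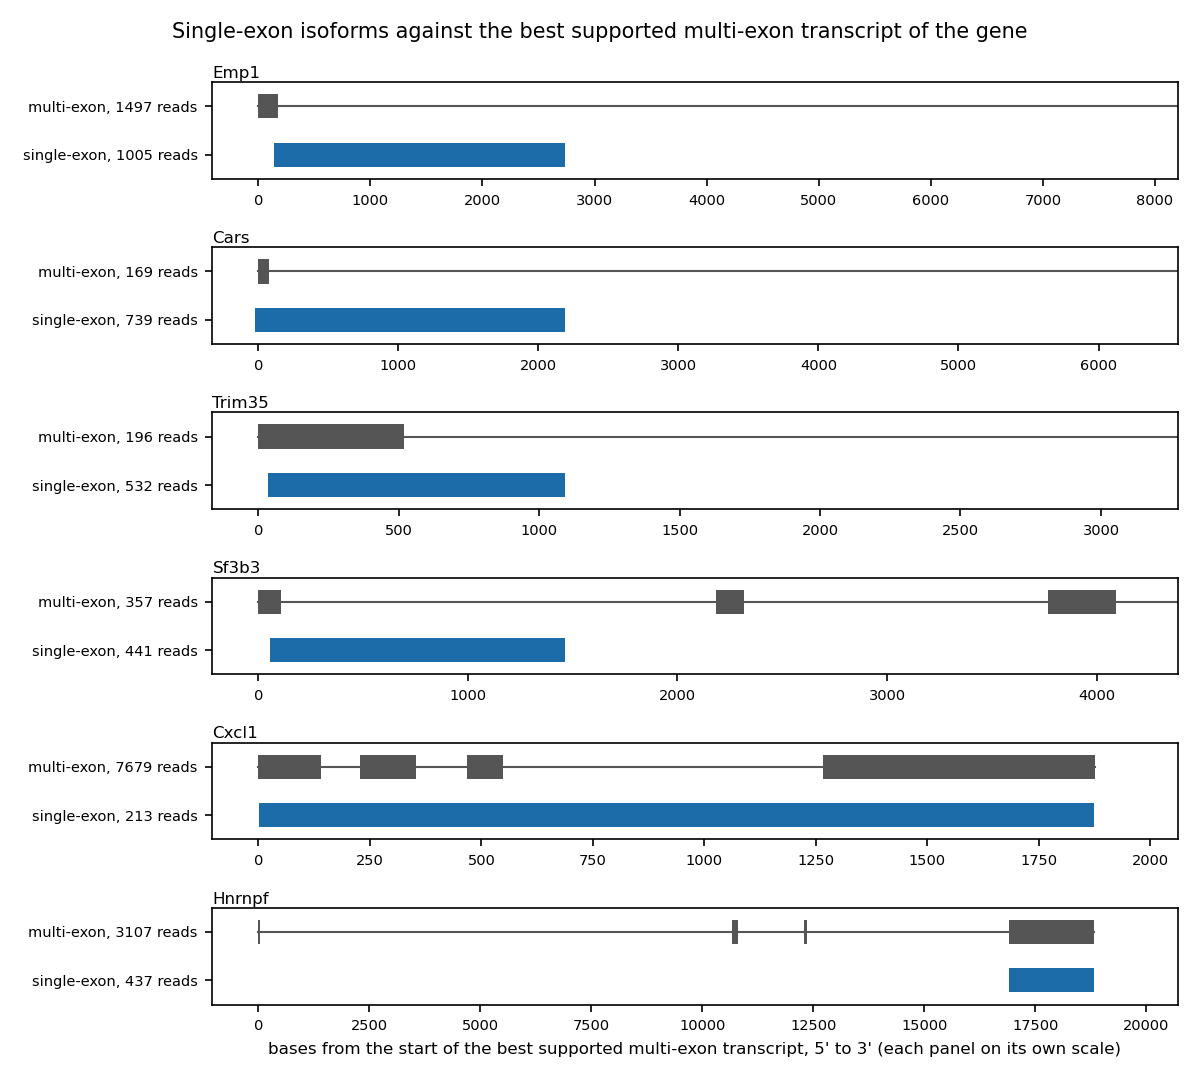
Exons of the best supported multi-exon transcript (grey, line for introns) and the single-exon isoform (blue) in 6 genes, in bases from the start of the multi-exon transcript, with the supporting reads of each. In Emp1, Cars, Trim35 and Sf3b3 the single-exon isoform overlaps the first exon and ends in intron 1, in Cxcl1 it spans the 4 exons, and in Hnrnpf it lies in the last exon.

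Seen by place, with a tolerance of 10 bases at exon ends, 156 isoforms ran out of an exon into an intron, 74 covered at least 1 whole intron of another transcript, and 10 ran from an intron into an exon. Isoforms within a single exon or intron were few. A last exon held 3 isoforms (1.13%, interval 0.234 to 3.27), a first exon 8 and an intron 2 (0.755%, interval 0.0915 to 2.70), and no isoform lay within an internal exon. The other 12 isoforms fitted none of these places and are called outside below. Apart from that of Srsf11, whose bases all lay in exons of other transcripts, they reached past or lay outside what the multi-exon transcripts covered. Of the 5 sites shown above, those of Emp1 and Serpine2 counted as a whole intron because a shorter intron of another transcript also lay inside the isoform.

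Other single-exon entries of the reference had this form less often. Gencode vM21 lists 1595 other single-exon transcripts in the same kind of gene that had no entry in the annotation, and 277 of these (17.4%, interval 15.5 to 19.3) ran from a first exon to an intron. The difference from the 265 isoforms written by the caller was 44.1 percentage points (Newcombe 95% interval 37.9 to 50.1). The annotation also held 162 single-exon transcripts marked as reference entries in such genes, and these too had read support (12031 reads in all). Of these, 50 (30.9%) had this form, a difference from the caller-written isoforms of 30.6 points (interval 21.1 to 39.3). Within the 263 genes, 0 of 62 other single-exon Gencode transcripts ran from a first exon to an intron, which allows a share of up to 4.84% (3 counts of 62). Each of these genes was chosen for a single-exon entry that was itself left out of the 62. This 0 is therefore no independent comparison within genes. In genes with at least 100 supporting reads the shares of caller-written isoforms and other Gencode transcripts were 64.9% and 18.1%. The difference was 46.8 points (interval 40.0 to 53.0). Transcripts that began and ended in introns showed the opposite order. They made up 5.28% of the caller-written isoforms and 34.0% of the other Gencode transcripts (difference -28.8 points, interval -31.9 to -24.7).

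**Figure D2:**
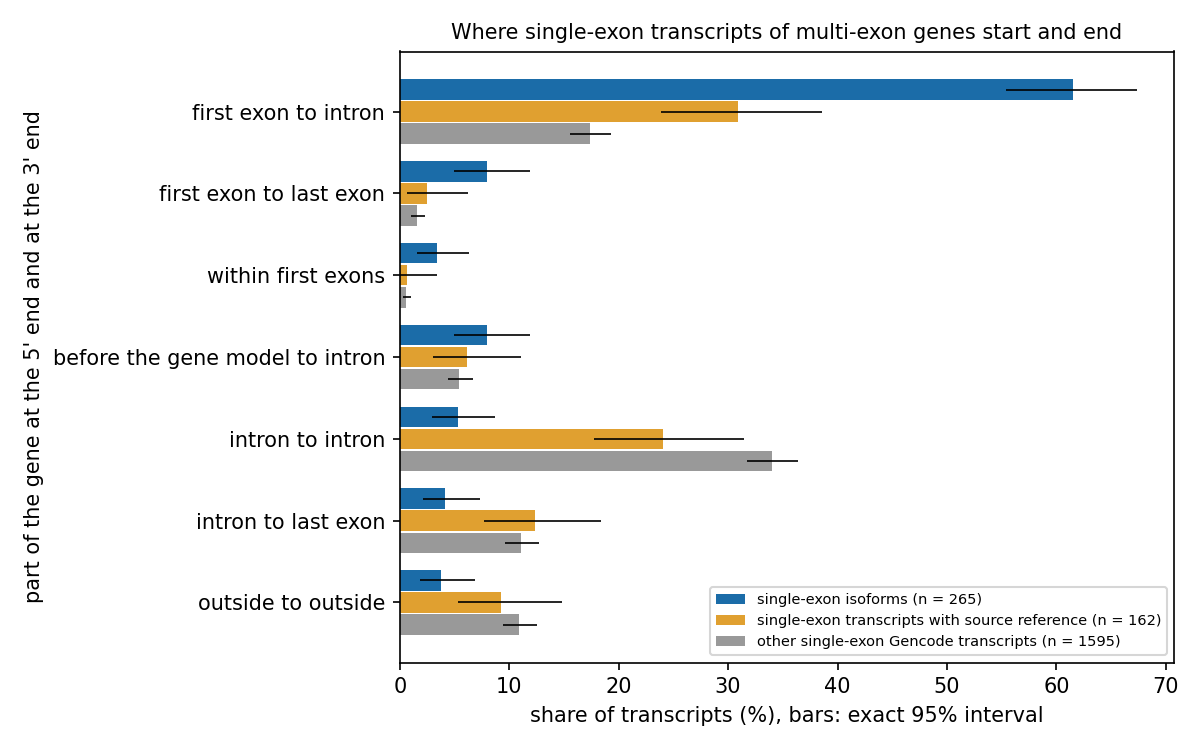
Share of single-exon transcripts (%) by the part of the gene that held the 5′ end and the 3′ end, with exact 95% intervals. Sets are the isoforms written by the caller (blue, n = 265), single-exon transcripts with source reference (orange, n = 162) and other single-exon Gencode transcripts (grey, n = 1595). The first exon to intron form makes up 61.5%, 30.9% and 17.4% of them.

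Starts of the isoforms lay close to starts of spliced transcripts. A start within 100 bases of that of a multi-exon transcript was found in 214 of 265 isoforms (80.8%), against 339 of 1595 other Gencode transcripts (21.3%), a difference of 59.5 points (interval 53.9 to 64.2). Ends did not show this: 34 isoforms (12.8%) ended within 100 bases of a multi-exon transcript's end, and 13.0% of the other Gencode transcripts did (difference -0.148 points, interval -4.06 to 4.68). By default the caller merged transcripts with a reference entry of similar splice junctions whose start and end lay within 100 bases, the distance used here. The part of this step in these shares was not tested. They were not recomputed with the starts and ends of Gencode multi-exon transcripts. By Gencode type, 236 of 263 isoforms were retained_intron (89.7%), close to the 88.2% of the other single-exon transcripts (difference 1.52 points, interval -2.99 to 5.06), and 16 were protein_coding. An annotated start codon of the gene lay inside 178 of 254 isoforms of genes with a coding sequence (70.1%, interval 64.0 to 75.6), against 30.3% of the other Gencode transcripts (difference 39.8 points, interval 33.4 to 45.6). Among those running from a first exon to an intron the start codon was inside 123 of 161, and the median coding sequence, where there was any, was 121 bases.

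The isoforms were 376 to 4070 bases long, with a median of 1603 and quartiles of 1096 and 2141. The 2271 multi-exon isoforms of the same genes had a median spliced length of 1747 bases, and the other single-exon Gencode transcripts a median of 2557 bases. FLAMES, the authors' isoform caller, kept transcripts with a minimum of full-length reads, so the length of reads bears on which entries could be supported.

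Support is the number of reads that the caller assigned to a transcript. The class held 21714 of 11810173 supporting reads (0.184%), and 4.86% of the reads of its own 263 genes. Support ranged from 5 to 1005 reads with a median of 40, and 63 isoforms had 100 reads or more. The 10 best supported isoforms held 26.6% of the reads of the class. For comparison, the median support of multi-exon isoforms of these genes was 29 reads and that of the 162 single-exon reference entries 20 reads. Of the 2271 multi-exon isoforms, 341 had a Gencode vM21 sequence, whereas all 265 single-exon isoforms carried a Gencode name. Support of the Gencode-named multi-exon isoforms alone was not computed. In 56 cases the single-exon isoform had more support than any other transcript of its gene.

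The best supported isoform was that of Emp1 (ENSMUSG00000030208), which encodes a tetraspan membrane protein. It lay at chr6:135363068-135365665, was 2598 bases long and had 1005 of the 5290 reads of the gene. Cars, the cysteinyl-tRNA synthetase gene, followed with 739 reads (33.8% of 2188) at chr7:143597868-143600080, where no other of the 32 transcripts of the gene had more. The isoform of Serpine2, which encodes a secreted serine protease inhibitor, had 578 reads (26.1% of 2215) and ended 1004 bases into an intron of 36953 bases. Trim35, which encodes a tripartite-motif protein, had 532 reads on the single-exon isoform (59.8% of 890), against 196 on its best supported multi-exon transcript. Sf3b3 encodes a subunit of the SF3b complex of the U2 snRNP, and its isoform had 441 reads (43.6% of 1011), more than the 357 of the best supported multi-exon transcript. The isoform of the long non-coding gene Gm42047 ran from a first to a last exon with 681 reads (9.75% of 6986).

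Few isoforms dominated their gene. Among the 229 genes with at least 100 supporting reads, single-exon isoforms held a median of 7.83% of the reads (quartiles 2.76 and 17.5%). In these genes the share was above 50% for 9 isoforms. Over all 265 isoforms it was above 50% for 21 and below 10% for 140. Among the genes with at least 100 reads the highest share was in Avl9, with 166 of 187 reads (88.8%), followed by Acsl1, a long-chain acyl-CoA synthetase gene, with 126 of 159 (79.2%). Next came Slc25a27, which encodes a mitochondrial carrier, with 70.0% of 150 reads. Ccpg1os had 61.8% of 102 reads and P2ry1, an ADP receptor gene, 60.8% of 120. Ahcyl2 (59.4% of 192), Eid3 (53.1% of 143), Hyi (52.6% of 173) and Rlf (49.2% of 417) completed the highest 10 together with Trim35. Of these 10 genes Trim35 alone had over 500 supporting reads, and in genes with at least 500 reads the median share was 4.09%.

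**Figure D3:**
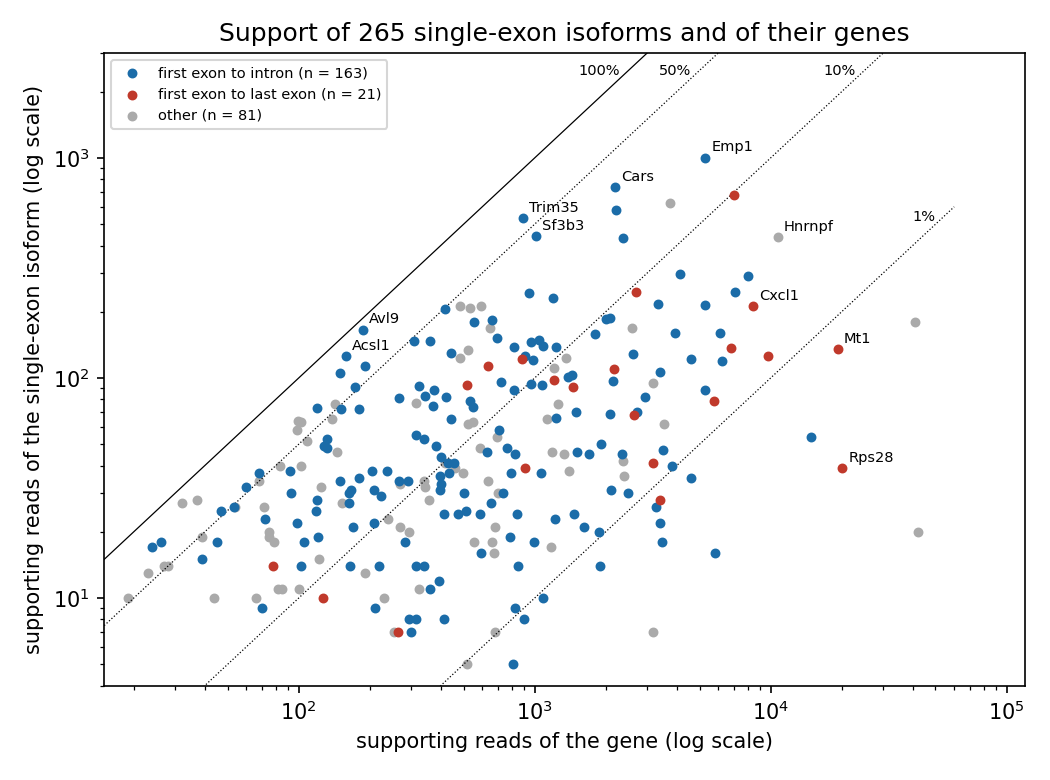
Supporting reads of each of the 265 single-exon isoforms against those of its gene, both on log scales, with lines at shares of 1, 10, 50 and 100%. Blue points run from a first exon to an intron (n = 163), red points from a first to a last exon (n = 21) and grey points are the others (n = 81). Avl9 lies nearest to the 100% line, and Mt1 and Rps28 lie below the 1% line.

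Well supported genes held such an isoform more often. It was found in 34 of 3986 genes with under 100 supporting reads (0.853%), in 90 of 2886 genes with 300 to under 1000 reads (3.12%) and in 36 of 581 genes with 3000 reads or more (6.20%, interval 4.38 to 8.48). The share over all 11591 genes with a transcript of at least 3 exons was 2.27%. An isoform needs at least 5 reads to be listed, and the part of the depth of each gene in this order was not tested.

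Another group of 21 isoforms began in the first exon of a multi-exon transcript and ended in a last exon, not always of the same transcript. Of these, 12 covered every intron of the best supported transcript of the gene. The 21 isoforms had a median length of 1882 bases and held between 0.194 and 18.02% of their gene's reads, with a median of 4.29%. Those that covered every intron included the chemokine genes Cxcl1 (213 of 8433 reads, 2.53%) and Cxcl2 (41 of 3176, 1.29%). The metallothionein gene Mt1 had 135 of 19235 reads on the unspliced form (0.702%). Atf4, a transcription factor gene of the integrated stress response, had 126 of 9707 (1.30%). Plk2, a polo-like kinase gene with 110 of 2180 reads (5.05%), was among the 9 in which introns of the best supported transcript lay outside the isoform. The start codon lay inside 18 of the 19 isoforms of this group with a coding gene.

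In the remaining places the members were few. In the last exon, Hnrnpf, which encodes an RNA-binding protein of the hnRNP family, had a protein_coding isoform of 1922 bases at chr6:117923701-117925622 with 437 of 10706 reads (4.08%). The others there were 2010111I01Rik (169 reads, 6.53% of the gene) and Usp19 (5 reads, 0.971%). In first exons, Mat2a, which encodes the enzyme that makes S-adenosylmethionine, had 625 reads (16.6% of 3762), Rpl6 180 (0.441% of 40819) and the histone gene Hist1h2bq 64 (64.6% of 99). Within introns lay the isoforms of Pfkfb4 (19 reads) and Cyb5d2 (11 reads). From an intron into an exon ran those of Eid3 (76 reads), Zfp469 (40) and Aebp2 (37). Outside lay those of Srsf11 (246 reads), Proser1 (58) and Zfp672 (33). The Srsf11 isoform had all its bases in exons of other transcripts, but no single one covered it. Zfp672 and the long non-coding 5031425E22Rik were the only genes with 2 isoforms of the class. Histone genes have near-identical copies, so the reads of Hist1h2bq are uncertain.

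Gene lists of RNA processing, myogenic regulation and metabolism held few members each, beside 2.27% over all genes. Of 27 genes of 3′ end processing 3 had a single-exon isoform (11.1%). These were Pcf11, a cleavage factor gene with 121 reads (12.3% of the gene), and the U1 snRNP genes Snrnp70 (95 reads, 3.01%) and Snrpa (31 reads, 1.46%). Of 28 myogenic and stem cell transcription factors 3 had one (10.7%). Msc, which encodes the bHLH repressor musculin, had 246 reads (3.49%), and the bHLH inhibitors Id2 and Id1 had 187 (8.93%) and 111 (9.23%). One gene in each of 3 further lists had an isoform, namely Srsf11 among 25 SR and related factors (9.17%), Hnrnpf among 33 hnRNP and other RNA-binding proteins, and Snhg8 among 21 long non-coding RNAs (98 reads, 8.08%). Ribosomal protein genes had 4 of 90 (4.44%), with a median share of 0.318% of the gene's reads, led by Rpl6, Rpl22l1 (79 reads) and Rps28 (39 reads). Respiratory chain and ATP synthase genes had 4 of 87 (4.60%), with a median share of 1.69%, led by Atp5j2 (122 reads), Ndufa10 (107) and Ndufb5 (22). None of 31 matrix and adhesion genes had one. These lists differ in the depth of their genes, and no test was made.

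The 3′ ends were examined for the poly(A) signal in the last 50 bases (AATAAA or ATTAAA, on the strand of the gene). Those shown here are 3 isoforms with the signal and 3 with A-rich ends, all ending in introns and the isoforms within last exons. The signal or runs of at least 4 A are in capitals.
Msc, chr1:14754767-14754816, minus strand: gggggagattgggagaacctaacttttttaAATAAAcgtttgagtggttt
Prdx6, chr1:161248605-161248654, minus strand: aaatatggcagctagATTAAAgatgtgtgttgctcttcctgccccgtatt
Klhl24, chr16:20099633-20099682, plus strand: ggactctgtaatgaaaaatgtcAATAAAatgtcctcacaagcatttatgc
Sf3b3, chr8:110845319-110845368, minus strand: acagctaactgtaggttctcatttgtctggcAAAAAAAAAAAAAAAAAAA
Timm9, chr12:71135538-71135587, minus strand: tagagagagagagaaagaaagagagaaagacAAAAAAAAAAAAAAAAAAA
Prcp, chr7:92876513-92876562, plus strand: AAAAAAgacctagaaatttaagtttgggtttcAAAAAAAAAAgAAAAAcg
Hnrnpf, chr6:117925593-117925622, plus strand: tttcttaaAATAAAgactttttcacaatga
2010111I01Rik, chr13:63302835-63302864, plus strand: acttgaAATAAAtggctgagtctatgcctt
Usp19, chr9:108501668-108501697, plus strand: aaagtgttAATAAAatgagtattcaggccc
Sf3b3 and Timm9 thus end in genome-encoded runs of 19 A in the reference model. The sequences of the reads were not examined.

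The poly(A) signal was much rarer at these ends than at the ends of Gencode-named spliced transcripts of the same genes. Of the 2271 multi-exon isoforms of these genes, 341 had a Gencode vM21 sequence, and the others were not examined. The signal was present in 58 of 263 single-exon isoforms (22.1%, interval 17.2 to 27.6) and in 224 of 341 Gencode-named multi-exon isoforms (65.7%, interval 60.4 to 70.7). With 1 isoform of each kind per gene, over 174 genes, the counts were 34 and 119, a difference of -48.9 points (interval -57.1 to -39.1, which treats the pairs as independent). In 93 of these genes the multi-exon isoform alone had the signal and in 8 genes the single-exon isoform alone. The low share was not particular to the isoforms written by the caller. The signal was present in 341 of 1595 other single-exon Gencode transcripts (21.4%), a difference of 0.674 points (interval -4.36 to 6.41). Among the isoforms written by the caller, the share depended on the place of the end. It was 18 of 33 (54.5%) for single-exon isoforms ending in a last exon and 35 of 201 (17.4%, interval 12.4 to 23.4) for those ending in an intron, a difference of 37.1 points (interval 19.6 to 53.4). All 3 isoforms within a last exon and neither of the 2 within an intron had it.

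The 17.4% at intronic ends was above the level in the windows compared within the same isoforms, which lay nearer the 5′ end. The signal was found in 3 of 201 windows of 50 bases before the middle of these isoforms (1.49%), a difference of 15.9 points (interval 10.5 to 21.8), and the reverse complement in 3 of 201 windows at their start. The base composition of these windows was not compared, so the difference holds for these windows only. The levels were higher in the 981 other single-exon Gencode transcripts with an intronic end. There the signal was found in 4.49% of windows before the middle, and the reverse complement in 8.36% of windows at the start. At their 3′ ends these transcripts had the signal in 16.9%, a difference of 0.491 points (interval -4.75 to 6.74). Where a signal was found in the last 100 bases, its first base lay a median of 22 bases from an intronic end and 23 bases from the end of a multi-exon isoform.

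**Figure D4:**
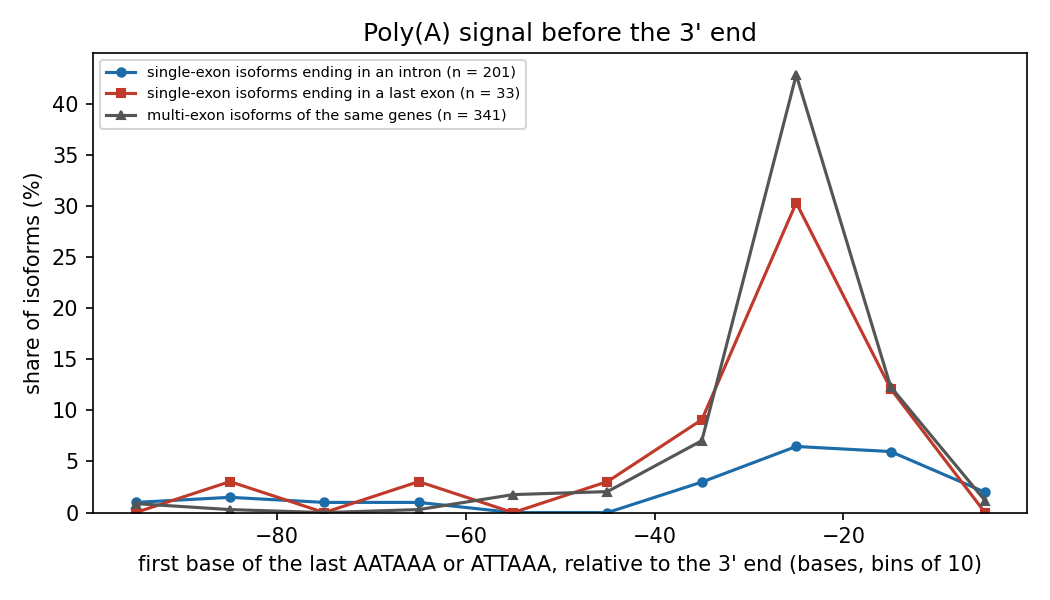
Share of isoforms (%) by the distance from the first base of the last AATAAA or ATTAAA to the 3′ end, in bins of 10 bases, for single-exon isoforms ending in an intron (blue, n = 201), ending in a last exon (red, n = 33) and multi-exon isoforms of the same genes (grey, n = 341). All 3 lines are highest between 20 and 30 bases from the end, at 6.47%, 30.3% and 42.8%.

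A-rich ends were a minority. At least 12 of the last 20 bases were A in 36 of 263 single-exon isoforms (13.7%, interval 9.77 to 18.4), in 41 of 341 multi-exon isoforms (difference 1.66 points, interval -3.65 to 7.24) and in 9.40% of the other single-exon Gencode transcripts (difference 4.28 points, interval 0.340 to 9.15). For ends reached from a first exon into an intron the shares were 16.0% and, in the other Gencode transcripts, 8.30% (difference 7.75 points, interval 1.55 to 14.7). These windows lie before the end. The genome after the end was not analysed here, and the part of priming within A-rich stretches in the support was not tested.

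Other genes overlapped some isoforms. An exon of another Gencode gene lay over 38 isoforms on the other strand, among them those of Mat2a, Trim35, Sf3b3 and Msc, and over 11 on the same strand. A single-exon read has no splice site to show its strand. The authors located the cell barcode in each read and trimmed the poly(A) tail, and both also mark the direction of a read. Whether the caller used this direction was not tested. Every isoform was on the strand of its gene in Gencode. How reads at these 38 isoforms divide between the strands was not tested.

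No level per cell could be given for these isoforms. None of the 265 was among the 68065 isoforms of the deposited table of long-read UMIs, and none of the 7754 isoforms in that table with a Gencode vM21 name is a single-exon transcript. The quiescent and activated cells could therefore not be compared for them. Other isoforms were counted for 258 of the 263 genes. The 21 isoforms above 50% of their gene's support were among those left out. Their genes had 2676 supporting reads, 1689 of them on the single-exon isoform. Other isoforms of these genes had 795 UMIs in the table, and 3 of the genes had no counted isoform. Reads and UMIs are different units, and the whole annotation had 11810173 supporting reads. Avl9 had 31 UMIs there and Trim35 216. The table held 8297203 UMIs in all, and the short-read libraries held 6772259 in the 10% aliquot and 39044129 in the 90% aliquot. Short reads are counted per gene and do not separate these isoforms from spliced ones.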

How the data were processed

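The authors sequenced cDNA of the 10% aliquot by nanopore, aligned reads to mm10 (GRCm38.p6 in the submitters' processing notes, which also name Cell Ranger 1.3 and minimap2 2.17), grouped them by splice junctions with FLAMES, corrected ends toward Gencode vM24, collapsed likely truncated transcripts, realigned the reads and dropped transcripts with few full-length reads. Such steps set which single-exon isoforms could be listed and gave them reference ends. The deposited annotation gives a read support per transcript, and the deposited long-read and short-read tables hold UMI counts, not normalized. Isoforms, places and shares were computed with Python 3.11.15 (numpy 2.4.6, pandas 2.3.3, scipy 1.17.1); exons came from all transcripts of a gene with at least 3 exons, with a tolerance of 10 bases for places and none for the start and end classes. Gencode vM21 has the same assembly and gave types, coding sequence and transcript sequences; gene names were matched without ID versions for all 263 genes. Shares have exact (Clopper-Pearson) 95% intervals and differences Newcombe intervals. Functions were tested on constructed cases. No significance test was made, since 1 capture has no replicate. Support is a count of reads, which were not treated as independent molecules. Intervals are over counts of isoforms or genes and cover counting error only.

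Named genes were the best supported in each place, the 10 genes with the highest share among those with at least 100 reads, the genes with the most members and up to 3 per gene list. The sets of sequences, the start and end classes and the first to last exon group were chosen after values were seen. The members and lists were chosen with earlier results of these data known.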

Additional observations from a re-analysis of the deposited data

How the results depend on the processing

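Of 60 alternative values, 51 stayed within the interval, the quartiles or 1.5 times the value reported. The 51 include the poly(A) signal shares of the 3 isoforms within a last exon and the 2 within an intron. Their intervals (29.2 to 100% and 0 to 84.2%) are so wide that these shares could hardly move, so the count says little about them. The share within an intron was 3.02% and 12.5% with a tolerance of 50 and 100 bases, 4.26% with exons of reference entries alone (94 isoforms) and 0% with support of at least 50 reads. The share from a first exon into an intron, whose alternatives were chosen after seeing the data, was 37.2% with exons of reference entries alone and 69.3% with those of all multi-exon Gencode transcripts. With the latter exons, 21.2% of the other Gencode transcripts had this form (difference 48.1 points, interval 41.9 to 53.7). Support of at least 50 reads left 112 isoforms. Hosts of at least 2 exons raised the share of all supporting reads to 0.704%. AATAAA alone lowered the poly(A) signal at intronic ends to 12.4%, also an alternative chosen after seeing the data. The cause of these moves beyond the changed definition was not tested. The shares with an A-rich genome after the end were not run, since no genome sequence was used here and exons of other Gencode transcripts covered the next 20 bases for 20 of 265 isoforms. The difference in UMI share between cell populations was not run, since no member is in the UMI table. No paired analysis was possible because there is 1 capture. A minimum of 5 reads limits what was seen in weakly supported genes.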

Other observations

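Single-exon isoforms of genes with fewer exons were left out of the report. The annotation held 627 single-exon isoforms written by the caller, of which 291 were in genes with no spliced transcript and 71 in genes whose transcripts had at most 2 exons. These 71 held 61436 supporting reads, against 21714 for the 265 described above. The best supported were those of Eno1b (12968 reads, 96.2% of the gene), Gm10275 (12933, 99.3%), Ftl1-ps1 (9717, 98.2%) and Junb (6168, 60.9%), an immediate early transcription factor gene. Eno1b, Gm10275 and Ftl1-ps1 can share reads with near-identical copies, so their counts are uncertain.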
